A study of Mus musculus with 6 samples.

Results

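The 47 genes described here are a hand-written list of the antioxidant programme of the transcription factor NRF2: its regulators, haem breakdown and ferritin, glutathione synthesis, thioredoxin and peroxide removal, NADPH supply, quinone and aldehyde enzymes, and glutathione transferases. They were listed by gene symbol for their known roles, with earlier results of these data known, and all 47 were found among the 40564 gene rows of the count files. Expression was measured by bulk RNA sequencing of mouse bronchoalveolar lavage cells, which are airspace immune cells recovered by rinsing the lung. There were 3 genotypes with 2 libraries each: mice lacking both Cis and Stat6 (Cis_Stat6_DKO), mice lacking Cis (Cis_KO) and wild-type mice (WT). Cis, encoded by Cish, is a feedback inhibitor of cytokine signalling through STAT proteins, and STAT6 is the transcription factor activated by interleukins 4 and 13. All mice were untreated, all libraries carry the same batch label, and age, sex, strain and the type of each allele were not given in the sources used here. Nothing in the labels says whether the 2 libraries of a genotype are different animals, and p-values here reflect only the variation between these samples.

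NRF2, the product of Nfe2l2, is held in the cytoplasm by KEAP1 and degraded until oxidants or electrophiles modify KEAP1. Stabilised NRF2 pairs with a small MAF protein on antioxidant response elements and raises transcription of enzymes that make glutathione, reduce peroxides and clear quinones and haem. BACH1 competes for the same elements and represses many of these genes. Alveolar macrophages, the main cell of the resting airspace, meet inhaled oxidants and take up haem and iron, and are known to use this programme.

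The antioxidant response element core, TGACNNNGC, was looked for on both strands (GCNNNGTCA on the other strand) of RefSeq promoter windows of GRCm38.p6 that run from 250 bases before to 50 bases after each gene's start. At least 1 match was present in 16 of the 41 listed genes in that table, 39.0%, and in 14.0% of all 27025 genes in it. The following sequences are shown because they sit at listed genes on both sides of the pattern described below: the first 6 belong to genes for which both Cis_KO libraries lay below both WT libraries, and the last 2 to genes for which they did not. Capitals mark the match, each sequence reads 5′ to 3′ on the gene's own strand, and a match is a description of letters, not of binding.
Srxn1 (chr2:152105542-152105570, plus strand): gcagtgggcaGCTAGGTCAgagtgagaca
Gclm (chr3:122245413-122245441, plus strand): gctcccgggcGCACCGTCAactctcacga
Prdx1 (chr4:116685456-116685484, plus strand): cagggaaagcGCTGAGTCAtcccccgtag
Txnrd1 (chr10:82859104-82859132, plus strand): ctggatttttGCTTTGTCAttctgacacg
Mafg (chr11:120633751-120633779, minus strand): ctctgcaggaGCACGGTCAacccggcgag
Me1 (chr9:86695902-86695930, minus strand): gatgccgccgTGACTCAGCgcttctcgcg
Sod1 (chr16:90220696-90220724, plus strand): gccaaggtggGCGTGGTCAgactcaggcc
Blvra (chr2:127070598-127070626, plus strand): cacgggaattGCTCGGTCAaggctccgcc

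The Prdx1 and Me1 sequences carry TGAGTCA or its complement TGACTCA within the match, as does the Pir promoter, gcatagagagGCTGAGTCActcccccaaa at chrX:164269207-164269235 on the plus strand. Nfe2l2 holds the core in its own promoter, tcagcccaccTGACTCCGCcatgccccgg at chr2:75704885-75704913 on the minus strand. Among the genes with a match, Sod1, G6pdx, Blvra, Pgd and Ugdh had no unadjusted p under 0.05 in any comparison. A STAT6-type palindrome, TTC and GAA with 4 bases between, was present in 3 of the 41 listed genes (Blvrb, Gstm1 and Pgd), 7.32%, against 8.01% of all genes. The STAT5-type palindrome TTCNNNGAA was present in 6 (Maff, Mgst1, Mgst2, Slc7a11, Sod2 and Txnrd1), 14.6%, against 9.55% of all genes. Both palindromes read the same on either strand.

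Library totals ran from 50762354 to 65937118 counts. Cish measured 1.72 and 5.04 CPM (counts-per-million, on TMM-scaled library totals) in Cis_Stat6_DKO, 4.34 and 3.52 CPM in Cis_KO, and 46.2 and 56.2 CPM in WT. Stat6 measured 31.6 and 25.5 CPM in Cis_Stat6_DKO, 264 and 221 CPM in Cis_KO, and 233 and 227 CPM in WT. All 12 alveolar macrophage markers on a fixed list were detected in every library, with a summed level of 30788 and 39713 CPM in Cis_Stat6_DKO, 18946 and 14716 CPM in Cis_KO, and 15087 and 22826 CPM in WT. The largest part of that sum was Chil3, with 22278 and 31128 CPM in Cis_Stat6_DKO, 11570 and 6881 CPM in Cis_KO, and 8777 and 15011 CPM in WT. The other markers did not share an order. Marco and Fabp4, among others, had their highest mean in Cis_Stat6_DKO, and Siglecf, Ear1 and Abcg1, among others, had a lower mean there than in Cis_KO or WT. Cis_KO replicate 2 stood apart from the other libraries: haemoglobin transcripts took 3.29% of its counts, against at most 0.0366% elsewhere, and 15855 genes had a count, against 19641 to 20431 elsewhere. In bulk samples, fewer cells of a type and less RNA per cell cannot be told apart.

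Per transcript length, the programme was led by the ferritin chains. In WT, the deposited FPKM (fragments per kilobase of gene, scaled to the library total) averaged 7987 for Ftl1, 3050 for Fth1, 1132 for Hmox1 and 619 for Prdx1. Of the 47 genes, 15 had a mean WT level of at least 100 FPKM, 19 lay between 10 and 100 FPKM, 10 lay between 1 and 10 FPKM, and 3 (Gsta4, Mgst2 and Aox1) were under 1 FPKM. The transcripts of NRF2 and KEAP1 themselves stood at 39.6 and 9.91 FPKM.

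Hmox1, Slc7a11, Srxn1 and Ptgr1 fell in Cis_KO against WT, at an adjusted p under 0.05 by edgeR's quasi-likelihood test with Benjamini-Hochberg adjustment over all 16765 genes tested. None of the 47 was called higher at that threshold in the same comparison. In Cis_Stat6_DKO against Cis_KO, Slc7a11, Srxn1 and Ptgr1 were called higher and none was called lower. No listed gene passed the test in Cis_Stat6_DKO against WT. The first 2 comparisons share the Cis_KO libraries, so they are not independent of each other.

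**Figure D1:**
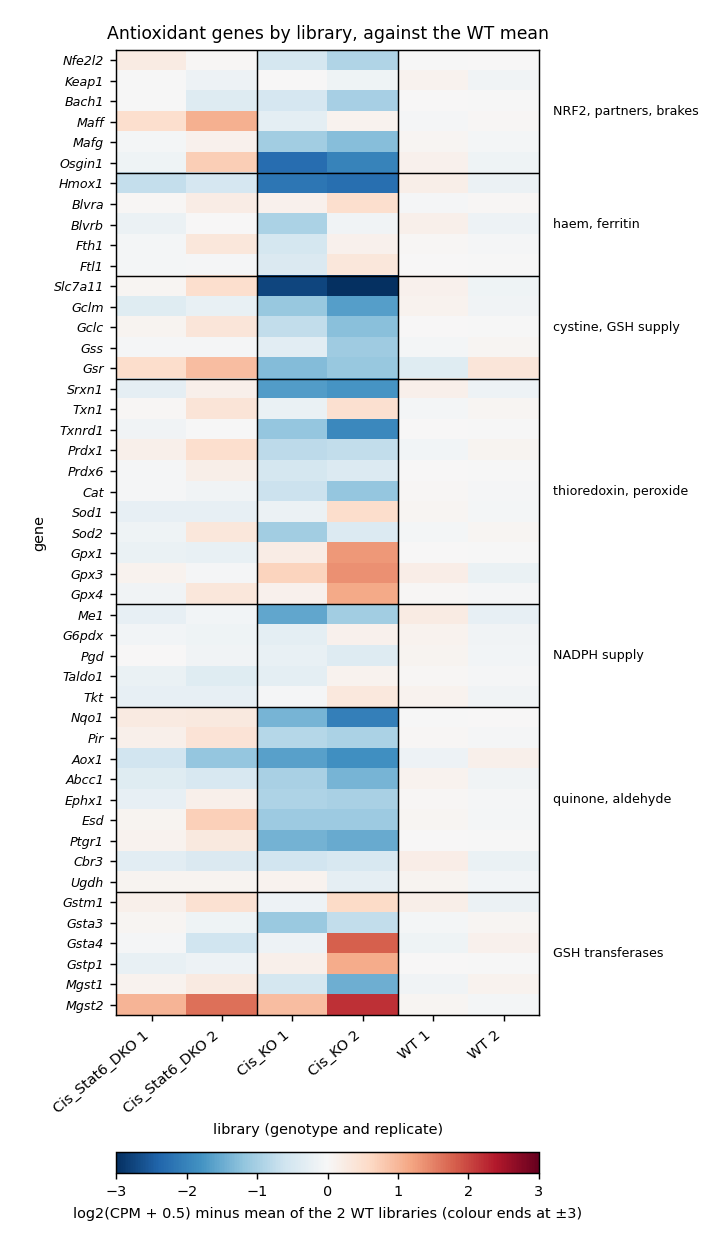
Level of the 47 genes in the 6 libraries, as log2 of CPM plus 0.5 minus the mean of the 2 WT libraries, with rows ordered by role in the pathway and columns ordered as Cis_Stat6_DKO, Cis_KO and WT. The median over the 47 genes was -0.04 and 0.03 in Cis_Stat6_DKO, -0.53 and -0.73 in Cis_KO, and 0.03 and -0.03 in WT.

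Read against the background, the count called lower in Cis_KO against WT was 4 of 47, where 0.155% of all tested genes were called lower. At an unadjusted p under 0.05, 25 of the 47 were lower and 3 (Gpx1, Gpx3 and Mgst2) were higher, where the share of all tested genes was 5.59% lower and 5.51% higher. For 28 genes both Cis_KO libraries lay below both WT libraries, and for 6 both lay above, against 25.9% and 21.4% of all tested genes. The median log2 fold change was -0.70 over the 47 genes and -0.05 over all tested genes. DESeq2 called 20 of the 47 lower and 1 (Mgst2) higher, where it called 2.12% of its tested genes lower and 1.55% higher.

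For Cis_Stat6_DKO against Cis_KO, 3 of 47 were called higher, where 0.239% of all tested genes were. The count at an unadjusted p under 0.05 was 25 higher and 3 (Gpx1, Gpx3 and Gstp1) lower, beside 9.29% and 8.99% of all tested genes. Libraries did not overlap for 29 genes with Cis_Stat6_DKO above and for 5 with it below, beside 27.9% and 22.5% of all tested genes. The median log2 fold change was 0.75 over the 47 genes and 0.05 over all tested genes. By DESeq2, 21 of the 47 were higher and 1 (Gpx1) was lower, beside backgrounds of 6.01% and 5.96%.

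Without Cis_KO replicate 1, listed genes were called in both directions in Cis_KO against WT and in Cis_Stat6_DKO against Cis_KO. Without Cis_KO replicate 2, the calls were all lower in the former comparison and all higher in the latter. The count of calls, higher and lower together, was sensitive to single libraries. In Cis_KO against WT it was 31 without Cis_KO replicate 1, where 28.8% of all tested genes were called, and 8 without Cis_KO replicate 2, where 1.02% were. It was 0 without any one of the 4 other libraries, where 3 to 6 of all genes were called. In Cis_Stat6_DKO against Cis_KO leaving out Cis_KO replicate 1 gave 30, beside 32.2% of all tested genes, and leaving out Cis_KO replicate 2 gave 14, beside 2.68%. It was 1 (Slc7a11) without WT replicate 1 or without WT replicate 2, beside 0.2% and 0.157% of all tested genes, and 0 without either Cis_Stat6_DKO library, where 4 to 11 of all genes were called.

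**Figure D2:**
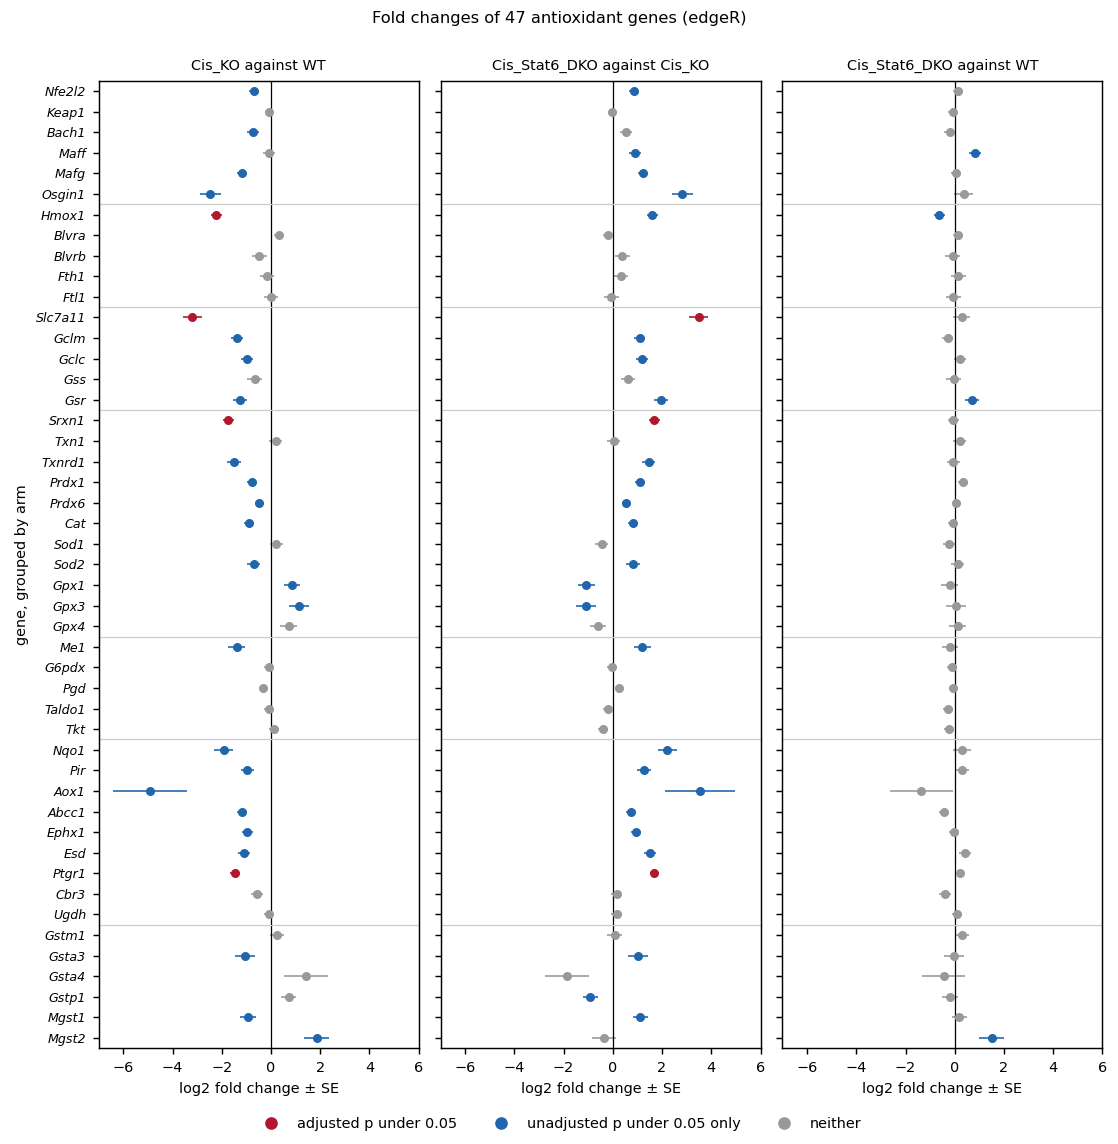
Log2 fold change with its standard error for each of the 47 genes in the 3 comparisons, in panels for Cis_KO against WT, Cis_Stat6_DKO against Cis_KO and Cis_Stat6_DKO against WT; red points passed an adjusted p of 0.05, blue points only an unadjusted p of 0.05, and grey points neither. The median of the points was -0.70, 0.75 and -0.03 in the 3 panels.

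Among the 6 genes grouped as regulators, which include the NRF2-induced Osgin1, none passed the adjusted test. In Cis_KO against WT 4 of them (Nfe2l2, Bach1, Mafg and Osgin1) had an unadjusted p under 0.05, all with lower values. Of all tested genes, 5.59% were lower at that p. Nfe2l2, which encodes NRF2, measured 189 and 163 CPM in Cis_Stat6_DKO, 111 and 85.3 CPM in Cis_KO, and 159 and 161 CPM in WT. Both Cis_KO libraries lay below the other 4 libraries. Its log2 fold change was -0.70 ± 0.20 (SE) for Cis_KO against WT (adjusted p = 0.373, edgeR) and 0.84 ± 0.20 for Cis_Stat6_DKO against Cis_KO (adjusted p = 0.145, edgeR). For Cis_Stat6_DKO against WT it was 0.14, with a 95% interval of -0.33 to 0.61.

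Keap1, the inhibitor that targets NRF2 for degradation, measured 48.9 and 44.5 CPM in Cis_Stat6_DKO, 49.4 and 45.2 CPM in Cis_KO, and 52.9 and 46.0 CPM in WT. The 3 genotypes overlapped. Bach1, the competing repressor, had 100.2 and 76.6 CPM in Cis_Stat6_DKO, 70.7 and 50.4 CPM in Cis_KO, and 102 and 99.7 CPM in WT. Cis_KO was the lowest genotype for this repressor as well, with a log2 fold change of -0.73 ± 0.24 against WT (edgeR, adjusted p = 0.417).

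Mafg, a small MAF partner of NRF2, measured 73.7 and 84.8 CPM in Cis_Stat6_DKO, 36.9 and 31.6 CPM in Cis_KO, and 80.1 and 74.5 CPM in WT. The Cis_KO libraries were well apart from the rest, at a log2 fold change of -1.17 ± 0.19 against WT (edgeR, adjusted p = 0.0967). Cis_Stat6_DKO against Cis_KO gave 1.21 ± 0.19 (edgeR, adjusted p = 0.0725). The related Maff had another pattern, with 62.8 and 92.2 CPM in Cis_Stat6_DKO, 35.7 and 47.4 CPM in Cis_KO, and 43.1 and 44.7 CPM in WT. Cis_KO overlapped WT for Maff, and the Cis_Stat6_DKO libraries were the highest, at 0.82 ± 0.25 on the log2 scale against WT (edgeR, adjusted p = 0.656).

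Osgin1, an NRF2-induced growth inhibitor, measured 7.82 and 14.5 CPM in Cis_Stat6_DKO, 1.36 and 1.78 CPM in Cis_KO, and 9.42 and 7.82 CPM in WT. Cis_KO was low in both libraries, and Cis_Stat6_DKO spread around WT. Its log2 fold changes were -2.46 ± 0.42 for Cis_KO against WT (edgeR, adjusted p = 0.117) and 2.83 ± 0.43 for Cis_Stat6_DKO against Cis_KO (edgeR, adjusted p = 0.0673).

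**Figure D3:**
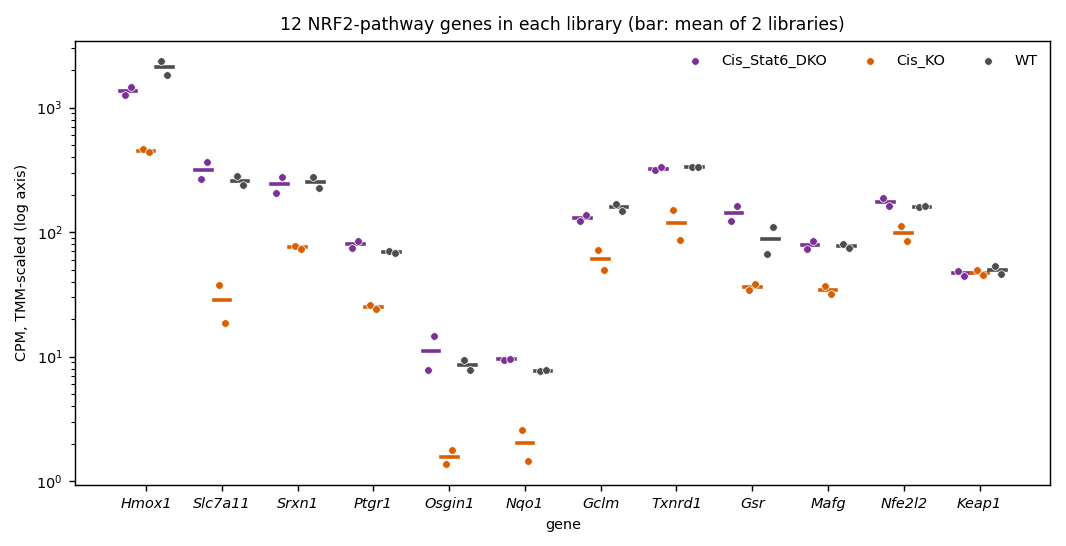
CPM on a log axis for 12 of the genes in each library, grouped as Cis_Stat6_DKO, Cis_KO and WT; each point is 1 library and each bar the mean of 2. For Hmox1 the Cis_Stat6_DKO libraries sit between the other genotypes, at 1262 and 1469 CPM, and for Slc7a11 they sit at 269 and 366 CPM beside 280.1 and 238 CPM in WT.

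In haem breakdown and iron storage, Hmox1 changed and the genes downstream of it did not pass the test. Hmox1, the inducible haem oxygenase that splits haem into biliverdin, carbon monoxide and iron, measured 1262 and 1469 CPM in Cis_Stat6_DKO, 465 and 436 CPM in Cis_KO, and 2373 and 1837 CPM in WT. The genotypes did not overlap, with Cis_KO lowest and Cis_Stat6_DKO between the others. Means were 1366 ± 146 CPM in Cis_Stat6_DKO, 451 ± 20.2 CPM in Cis_KO and 2105 ± 379 CPM in WT (SD, n = 2 each). Hmox1 (chromosome 8, 75093621 to 75100589, plus strand, mm10) fell 4.67-fold in Cis_KO against WT, a log2 fold change of -2.22 ± 0.22 (edgeR, adjusted p = 0.0268).

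In Cis_Stat6_DKO against Cis_KO the Hmox1 log2 fold change was 1.60 ± 0.22, just outside the threshold (edgeR, adjusted p = 0.0523). Cis_Stat6_DKO against WT gave -0.62 with a 95% interval of -1.13 to -0.12 (edgeR, adjusted p = 0.771), the only lower value among the 47 at an unadjusted p under 0.05 in that comparison.

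Blvra and Blvrb, the biliverdin reductases, and the ferritin heavy and light chains Fth1 and Ftl1 had no unadjusted p under 0.05 in any comparison. Fth1 measured 10780.4 and 14118 CPM in Cis_Stat6_DKO, 7764 and 12206 CPM in Cis_KO, and 11535 and 10944 CPM in WT, so the genotypes overlapped. Ftl1 measured 10836 and 11090.3 CPM in Cis_Stat6_DKO, 8412 and 14411 CPM in Cis_KO, and 11446 and 11294 CPM in WT. Its log2 fold change for Cis_KO against WT was 0.01, with a 95% interval of -0.68 to 0.69. Reads of Ftl1 may be divided with the pseudogene Ftl1-ps1, which held 118 to 184 CPM. Blvra stayed within 155 to 225 CPM and Blvrb within 63.2 to 135 CPM.

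Of the 5 genes of cystine import and glutathione synthesis, 1 passed the adjusted test, and all 5 had both Cis_KO libraries below both WT libraries. Of all tested genes, 0.155% were called lower in Cis_KO against WT and 25.9% had both Cis_KO libraries below both WT libraries. Slc7a11, the cystine importer of the xCT exchanger, measured 269 and 366 CPM in Cis_Stat6_DKO, 37.9 and 18.5 CPM in Cis_KO, and 280.1 and 238 CPM in WT. Both Cis_KO libraries were far below the others, and Cis_Stat6_DKO overlapped WT. Means were 318 ± 68.9 CPM in Cis_Stat6_DKO, 28.2 ± 13.7 CPM in Cis_KO and 259 ± 29.8 CPM in WT (SD, n = 2 each). Slc7a11 (chromosome 3, 49892526 to 50443614, minus strand, mm10) fell 9.18-fold in Cis_KO against WT, at -3.20 ± 0.38 on the log2 scale (edgeR, adjusted p = 0.0441).

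It rose 11.3-fold in Cis_Stat6_DKO against Cis_KO, at 3.49 ± 0.38 on the log2 scale (edgeR, adjusted p = 0.0308). Cis_Stat6_DKO against WT gave 0.29 with a 95% interval of -0.54 to 1.13 that spans both directions.

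The enzymes that build and recycle glutathione lay lower in both Cis_KO libraries without passing the adjusted test. Gclm, the modifier subunit of glutamate-cysteine ligase, had 123 and 136 CPM in Cis_Stat6_DKO, 71.7 and 49.9 CPM in Cis_KO, and 169 and 148 CPM in WT. Cis_KO was lowest and the genotypes did not overlap, with log2 fold changes of -1.38 ± 0.23 for Cis_KO against WT (edgeR, adjusted p = 0.1) and 1.09 ± 0.22 for Cis_Stat6_DKO against Cis_KO (edgeR, adjusted p = 0.123). The antisense gene Gm17494 overlaps Gclm and held 7.7 to 44.5 CPM, and since strand use in counting was not given, reads of the pair cannot be told apart. Gclc, the catalytic subunit, had 49.5 and 60.4 CPM in Cis_Stat6_DKO, 28.2 and 19.6 CPM in Cis_KO, and 47.9 and 46.3 CPM in WT. Its Cis_KO libraries were again the lowest pair, at -0.98 ± 0.24 against WT on the log2 scale (edgeR, adjusted p = 0.296).

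Gsr, which returns oxidised glutathione to its reduced form, measured 123 and 162 CPM in Cis_Stat6_DKO, 34.4 and 38.4 CPM in Cis_KO, and 66.2 and 109.6 CPM in WT. The 3 genotypes did not overlap, and here Cis_Stat6_DKO was the highest. Log2 fold changes were -1.27 ± 0.29 for Cis_KO against WT (edgeR, adjusted p = 0.252), 1.97 ± 0.29 for Cis_Stat6_DKO against Cis_KO (edgeR, adjusted p = 0.0649) and 0.70 ± 0.28 for Cis_Stat6_DKO against WT (edgeR, adjusted p = 0.904). Gss, glutathione synthetase, ranged from 8.86 to 19.8 CPM, with both Cis_KO libraries lowest and an unadjusted edgeR p of 0.0625 against WT.

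Of the 11 thioredoxin and peroxide genes, 6 were lower and 2 higher in Cis_KO against WT at an unadjusted p under 0.05, and 1 passed the adjusted test. Of all tested genes, 5.59% were lower and 5.51% higher at that p, and 0.155% were called lower. Srxn1, sulfiredoxin, which repairs over-oxidised peroxiredoxins, measured 207 and 278 CPM in Cis_Stat6_DKO, 77.3 and 73.2 CPM in Cis_KO, and 278 and 224 CPM in WT. Cis_KO stood apart from the other genotypes, which overlapped. Means were 242 ± 49.6 CPM in Cis_Stat6_DKO, 75.3 ± 2.9 CPM in Cis_KO and 251 ± 38.0 CPM in WT (SD, n = 2 each). Srxn1 (chromosome 2, 152105516 to 152109322, plus strand, mm10) fell 3.33-fold in Cis_KO against WT, at -1.74 ± 0.22 on the log2 scale (edgeR, adjusted p = 0.0494). In Cis_Stat6_DKO against Cis_KO it rose 3.22-fold, at 1.69 ± 0.22 (edgeR, adjusted p = 0.0451).

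Txnrd1, the cytosolic thioredoxin reductase, had 313 and 334 CPM in Cis_Stat6_DKO, 149.8 and 87.0 CPM in Cis_KO, and 336 and 333 CPM in WT. Its log2 fold change was -1.50 ± 0.27 for Cis_KO against WT (edgeR, adjusted p = 0.137) and 1.45 ± 0.27 for Cis_Stat6_DKO against Cis_KO (edgeR, adjusted p = 0.104). Cis_KO was low in both libraries. The substrate of this reductase, Txn1, ranged over 322 to 516 CPM with overlapping genotypes. Prdx1, an abundant peroxiredoxin, measured 2211 and 2838 CPM in Cis_Stat6_DKO, 1154 and 1191 CPM in Cis_KO, and 1878 and 2125 CPM in WT. Cis_KO was lowest and Cis_Stat6_DKO highest, with -0.77 ± 0.21 for Cis_KO against WT (edgeR, adjusted p = 0.367) and 1.11 ± 0.21 for Cis_Stat6_DKO against Cis_KO (edgeR, adjusted p = 0.107).

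Catalase, encoded by Cat, had 279.6 and 266 CPM in Cis_Stat6_DKO, 181 and 127 CPM in Cis_KO, and 289.8 and 280.1 CPM in WT. Mitochondrial superoxide dismutase, Sod2, had 139 and 191 CPM in Cis_Stat6_DKO, 73.4 and 113 CPM in Cis_KO, and 144 and 159 CPM in WT. Prdx6 had 80.9 and 93.5 CPM in Cis_Stat6_DKO, 57.7 and 62.2 CPM in Cis_KO, and 84.4 and 81.8 CPM in WT. For each of these 3 genes both Cis_KO libraries lay below the other 4 libraries, and none passed the adjusted test. Log2 fold changes for Cis_KO against WT were -0.89 ± 0.21 for Cat, -0.70 ± 0.27 for Sod2 and -0.47 ± 0.17 for Prdx6.

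The glutathione peroxidases had higher values in Cis_KO, mainly in replicate 2. Gpx1, the cytosolic selenoenzyme, measured 381 and 371 CPM in Cis_Stat6_DKO, 508 and 1077 CPM in Cis_KO, and 438 and 434 CPM in WT. Gpx3, the secreted form, measured 4.00 and 3.58 CPM in Cis_Stat6_DKO, 6.10 and 10.2 CPM in Cis_KO, and 4.26 and 3.13 CPM in WT. Both Cis_KO libraries were the highest for either gene, with replicate 2 far above replicate 1. Log2 fold changes for Cis_KO against WT were 0.86 ± 0.34 for Gpx1 and 1.14 ± 0.41 for Gpx3 (edgeR, adjusted p = 0.437 for both). Gpx4, which reduces lipid peroxides, ranged over 268 to 641 CPM and Sod1, the cytosolic dismutase, over 103 to 176 CPM, each with its maximum in Cis_KO replicate 2 and no unadjusted p under 0.05.

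Markers of several other cell types stood high in the same library. The 9 measured erythroid markers summed to 353 and 42.7 CPM in Cis_Stat6_DKO, 15.0 and 38669 CPM in Cis_KO, and 200.3 and 192 CPM in WT, with Epb42 at 0 in both Cis_Stat6_DKO libraries, Cis_KO replicate 1 and WT replicate 2. The 8 B cell markers summed to 0.491 and 16.4 CPM in Cis_Stat6_DKO, 1.22 and 122 CPM in Cis_KO, and 5.5 and 2.56 CPM in WT, with Cd79b at 0 in Cis_KO replicate 1 and both WT libraries. All 10 neutrophil markers were detected everywhere and summed to 279.7 and 302 CPM in Cis_Stat6_DKO, 175 and 822 CPM in Cis_KO, and 244 and 236 CPM in WT. The neutrophil list was split: S100a8, S100a9, Ly6g, Retnlg, Ngp, Ltf and Camp were highest in Cis_KO replicate 2. Mmp8 was lowest there, at 11.9 CPM, Cxcr2 was highest in Cis_Stat6_DKO and Csf3r was highest in WT. The 10 airway and alveolar epithelial markers summed to 79.1 and 47.5 CPM in Cis_Stat6_DKO, 87.4 and 455 CPM in Cis_KO, and 202 and 237 CPM in WT, with Lamp3 at 0 in Cis_KO replicate 2 alone. For each of these lists Cis_KO replicate 2 had the highest sum. Other lists differed. Monocyte-derived macrophage markers summed to 46.9 and 39.4 CPM in Cis_KO, against 12.2 to 32.7 CPM elsewhere. T cell markers summed to 15.9 and 19.1 CPM in Cis_KO, with the maximum of 56.5 CPM in WT replicate 1. The sum in Cis_Stat6_DKO replicate 1 lay between those of the Cis_KO libraries. Il7r was the largest part of both WT sums, at 32.9 and 22.6 CPM, against 3.74 and 3.2 CPM in Cis_KO. The other T cell markers overlapped between Cis_KO and WT, so the sums do not show fewer T cells in Cis_KO. Dendritic cell markers ran from 3.64 to 14.7 CPM, highest in Cis_KO replicate 2, and eosinophil markers were at most 0.466 CPM. The part of these cells in the values of the listed genes was not tested.

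The 2 Cis_KO libraries also differed by gene length. Over 11578 tested genes with a length, the log2 ratio of Cis_KO replicate 2 to replicate 1 had a Spearman correlation of -0.35 with the length implied by the deposited FPKM. The median ratio was 0.34 in the 2895 shortest genes and -0.39 in the 2895 longest. Over the 46 listed genes with a length the correlation was -0.49, and over the same 11578 genes it was -0.27 between the Cis_Stat6_DKO libraries and 0.00 between the WT libraries. These are descriptions across genes, which are not independent replicates. The part of this difference in any listed gene's value was not tested.

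**Figure D4:**
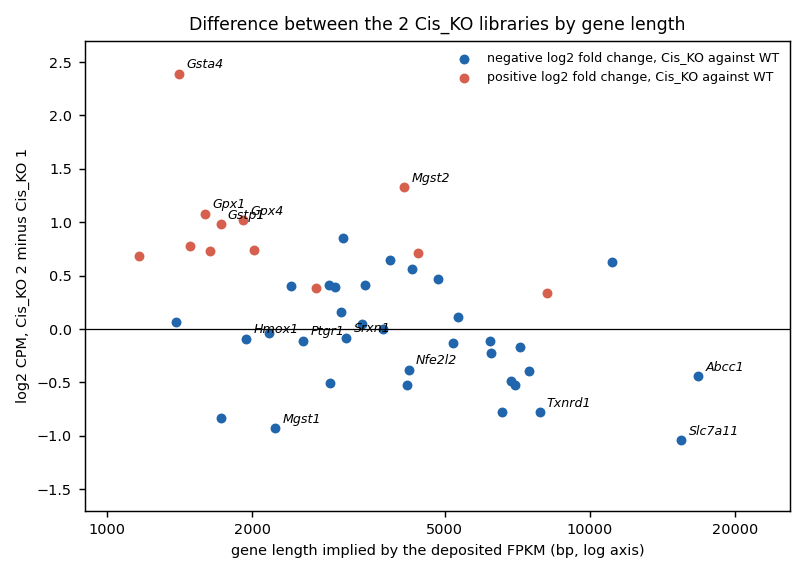
For 46 listed genes, the log2 ratio of CPM in Cis_KO replicate 2 to Cis_KO replicate 1 (vertical axis) against the gene length implied by the deposited FPKM in base pairs (log axis), coloured by the sign of the log2 fold change of Cis_KO against WT. Hmox1, Srxn1 and Ptgr1 sit near 0, where the libraries match, and Slc7a11 sits at -1.04. The genes with a positive fold change sit above 0, as do some with a negative one, such as Blvrb and Fth1. Cis_KO replicate 2 enters both the ratio and the fold change, so the axis and the colour are not independent.

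In the NADPH arm, 1 of 5 genes differed at an unadjusted p under 0.05 and none passed the adjusted test. Of all tested genes, 5.59% were lower and 5.51% higher in Cis_KO against WT at that p. Me1, malic enzyme, measured 10.2 and 11.6 CPM in Cis_Stat6_DKO, 3.83 and 5.66 CPM in Cis_KO, and 14.6 and 10.3 CPM in WT. Both Cis_KO libraries were lowest, at -1.39 ± 0.34 on the log2 scale against WT (edgeR, adjusted p = 0.291). The 4 pentose phosphate genes had smaller differences. G6pdx ranged over 307 to 408 CPM, Pgd over 691 to 955 CPM, Taldo1 over 598 to 829 CPM and Tkt over 803 to 1178 CPM. For Cis_KO against WT the 95% interval of the log2 fold change was -0.55 to 0.42 for G6pdx and -0.74 to 0.13 for Pgd, so a change the size of that of Me1 lay outside both.

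Of the 9 quinone, aldehyde and xenobiotic genes, 1 passed the adjusted test in Cis_KO against WT. At an unadjusted p under 0.05, 7 were lower, beside 5.59% of all tested genes, and in 8 both Cis_KO libraries lay below both WT libraries, beside 25.9%. Ptgr1, an NADPH-dependent reductase of leukotriene B4 and reactive alkenals, measured 74.5 and 85.2 CPM in Cis_Stat6_DKO, 25.8 and 23.9 CPM in Cis_KO, and 70.5 and 68.5 CPM in WT. Cis_KO was far below, and Cis_Stat6_DKO was slightly above WT in both libraries. Means were 79.9 ± 7.57 CPM in Cis_Stat6_DKO, 24.9 ± 1.38 CPM in Cis_KO and 69.5 ± 1.41 CPM in WT (SD, n = 2 each). Ptgr1 (chromosome 4, 58965439 to 58987119, minus strand, mm10) fell 2.80-fold in Cis_KO against WT, at -1.48 ± 0.18 on the log2 scale (edgeR, adjusted p = 0.0475). It rose 3.21-fold in Cis_Stat6_DKO against Cis_KO, at 1.68 ± 0.18 (edgeR, adjusted p = 0.0308).

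Nqo1, the NADPH quinone reductase used as a standard readout of NRF2, had 9.39 and 9.56 CPM in Cis_Stat6_DKO, 2.59 and 1.46 CPM in Cis_KO, and 7.63 and 7.73 CPM in WT. Cis_Stat6_DKO was highest and Cis_KO lowest without overlap. Its log2 fold changes were -1.92 ± 0.38 for Cis_KO against WT (edgeR, adjusted p = 0.183) and 2.22 ± 0.39 for Cis_Stat6_DKO against Cis_KO (edgeR, adjusted p = 0.0905). Esd, S-formylglutathione hydrolase, had 392 and 605 CPM in Cis_Stat6_DKO, 175 and 175 CPM in Cis_KO, and 386 and 354 CPM in WT. The Cis_KO libraries matched each other for Esd, at -1.08 ± 0.24 against WT (edgeR, adjusted p = 0.237) and with Cis_Stat6_DKO 1.51 ± 0.24 above them (edgeR, adjusted p = 0.0767).

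Abcc1, an exporter of glutathione conjugates, had 116 and 108 CPM in Cis_Stat6_DKO, 76.4 and 56.4 CPM in Cis_KO, and 162 and 139 CPM in WT. Cis_Stat6_DKO lay between the other genotypes for Abcc1, as for Hmox1 and Gclm. Ephx1, microsomal epoxide hydrolase, had 32.1 and 42.3 CPM in Cis_Stat6_DKO, 19.9 and 19.3 CPM in Cis_KO, and 38.8 and 37.4 CPM in WT. Pir, encoding pirin, had 11.7 and 14.2 CPM in Cis_Stat6_DKO, 5.61 and 5.21 CPM in Cis_KO, and 10.7 and 10.3 CPM in WT. All 3 genes were lowest in Cis_KO in both libraries, with log2 fold changes against WT of -1.18 ± 0.21 for Abcc1, -0.96 ± 0.21 for Ephx1 and -0.96 ± 0.27 for Pir, and none passed the adjusted test.

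Aox1, aldehyde oxidase, was close to the limit of detection, with 0.708 and 0.308 CPM in Cis_Stat6_DKO, 0.0781 and 0 CPM in Cis_KO, and 1.10 and 1.51 CPM in WT. The Cis_KO values rest on 5 and 0 counts, and the difference from WT did not pass the adjusted test (edgeR, adjusted p = 0.413). Cbr3, a carbonyl reductase, ranged over 13.0 to 22.5 CPM with Cis_KO lowest, and its unadjusted edgeR p against WT was 0.0549. Ugdh, which makes UDP-glucuronate, ranged over 40.9 to 53.8 CPM, and the 95% interval of its log2 fold change for Cis_KO against WT was -0.56 to 0.42.

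The 6 glutathione transferases did not share a direction. Mgst1, a microsomal transferase, measured 490.5 and 551 CPM in Cis_Stat6_DKO, 317 and 166 CPM in Cis_KO, and 425 and 493 CPM in WT. Gsta3 measured 5.23 and 4.52 CPM in Cis_Stat6_DKO, 2.02 and 2.79 CPM in Cis_KO, and 4.71 and 5.22 CPM in WT. These 2 were low in both Cis_KO libraries, at -0.93 ± 0.31 and -1.05 ± 0.40 on the log2 scale against WT (edgeR, adjusted p = 0.428 for Mgst1 and 0.437 for Gsta3).

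Mgst2, which conjugates leukotriene A4 with glutathione, had a pattern of its own, with 6.31 and 9.97 CPM in Cis_Stat6_DKO, 5.89 and 14.8 CPM in Cis_KO, and 2.97 and 2.73 CPM in WT. Both knockout genotypes were above WT in every library and overlapped each other. Log2 fold changes were 1.51 ± 0.51 for Cis_Stat6_DKO against WT (edgeR, adjusted p = 0.736) and 1.86 ± 0.51 for Cis_KO against WT (edgeR, adjusted p = 0.367). Gstp1, the pi-class transferase, had 65.6 and 68.8 CPM in Cis_Stat6_DKO, 84.8 and 167 CPM in Cis_KO, and 77.6 and 75.7 CPM in WT. Its excess in Cis_KO lay mostly in replicate 2, the library with the highest summed erythroid, B cell, neutrophil and epithelial markers. The near-identical copy Gstp2 held 4.19 to 24.7 CPM, so the split of reads between Gstp1 and Gstp2 is uncertain. Gstm1 ranged over 506 to 848 CPM with overlapping genotypes, and Gsta4 over 0.617 to 5.39 CPM with its maximum in Cis_KO replicate 2.

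Cis_Stat6_DKO against WT gave a median log2 fold change of -0.03 over the 47 genes and 0.00 over all tested genes. By edgeR 0 of the 47 passed the adjusted test, where 0.131% of all tested genes did, and by DESeq2 also 0, where 2.05% did. At an unadjusted p under 0.05, 3 genes (Maff, Gsr and Mgst2) were higher and Hmox1 was lower, against 3.06% and 2.3% of all tested genes. Libraries did not overlap for 11 genes with Cis_Stat6_DKO above WT and for 12 with it below, against 23.3% and 23.5% of all tested genes. The intervals bound how far the called genes could lie from WT: the 95% interval of the log2 fold change was -1.13 to -0.12 for Hmox1, which lies below 0, -0.54 to 1.13 for Slc7a11, -0.55 to 0.46 for Srxn1 and -0.22 to 0.62 for Ptgr1. A gene that misses the threshold is not shown to be at the WT level.

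A second list held 66 further rows of the same pathways, 63 of which were tested, and 0 of these passed the adjusted edgeR test in any comparison. At an unadjusted p under 0.05, 4 were higher and 9 lower in Cis_KO against WT, beside 5.51% and 5.59% of all tested genes. In Cis_Stat6_DKO against Cis_KO 11 were higher and 4 lower, beside 9.29% and 8.99%. For Cis_Stat6_DKO against WT the counts were 2 higher and 3 lower, beside 3.06% and 2.3%. DESeq2 called 1 higher and 3 lower for Cis_KO against WT, beside 1.55% and 2.12% of its tested genes, and 7 higher and 2 lower for Cis_Stat6_DKO against Cis_KO, beside 6.01% and 5.96%. It called 1 higher and 0 lower for Cis_Stat6_DKO against WT, where it called 2.05% of its tested genes in either direction. Median log2 fold changes over these rows were -0.12, 0.00 and 0.01 in the same order of comparisons.

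From that list, Sqstm1, the autophagy adaptor that sequesters KEAP1 and is itself induced by NRF2, measured 1508 and 1847 CPM in Cis_Stat6_DKO, 848 and 925 CPM in Cis_KO, and 2151 and 1837 CPM in WT. Akr1b8, an aldo-keto reductase, measured 21.5 and 26.1 CPM in Cis_Stat6_DKO, 4.19 and 8.22 CPM in Cis_KO, and 19.5 and 17.9 CPM in WT. Both Cis_KO libraries were lowest for each gene, with log2 fold changes against WT of -1.17 ± 0.21 for Sqstm1 (edgeR, adjusted p = 0.13) and -1.60 ± 0.35 for Akr1b8 (edgeR, adjusted p = 0.239). Cul3, the ubiquitin ligase scaffold that works with KEAP1, had 86.3 and 94.0 CPM in Cis_Stat6_DKO, 61.4 and 42.4 CPM in Cis_KO, and 74.4 and 80.1 CPM in WT. Cis_KO was again lowest, and the log2 fold change of Cis_Stat6_DKO against Cis_KO was 0.80 ± 0.22.

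Glrx, glutaredoxin, had 116 and 113 CPM in Cis_Stat6_DKO, 68.8 and 67.0 CPM in Cis_KO, and 86.7 and 84.6 CPM in WT. Its replicates were close to each other and Cis_Stat6_DKO was highest, at 0.75 ± 0.16 on the log2 scale against Cis_KO (edgeR, adjusted p = 0.129). Ggt5, a glutamyl transferase that cleaves leukotriene C4, had 10.5 and 8.33 CPM in Cis_Stat6_DKO, 10.7 and 9.29 CPM in Cis_KO, and 18.6 and 16.4 CPM in WT. Both knockout genotypes lay below WT and overlapped each other, at -0.89 ± 0.26 for Cis_Stat6_DKO against WT (edgeR, adjusted p = 0.566) and -0.80 ± 0.26 for Cis_KO against WT.

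The mitochondrial reductase Txnrd2 had 16.7 and 13.6 CPM in Cis_Stat6_DKO, 23.5 and 42.5 CPM in Cis_KO, and 22.2 and 17.9 CPM in WT. Gstt2, a theta-class transferase, had 7.53 and 5.02 CPM in Cis_Stat6_DKO, 11.3 and 14.5 CPM in Cis_KO, and 9.23 and 9.21 CPM in WT. Cis_KO was highest for both, with log2 fold changes of Cis_Stat6_DKO against Cis_KO of -1.12 ± 0.33 for Txnrd2 and -1.04 ± 0.32 for Gstt2, neither past the adjusted test.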

How the data were processed

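RNA of 6 mouse lavage samples was measured, 2 of each genotype. Per the file headers the authors deposited raw counts per gene, which are not normalised, and FPKM values, which are counts scaled by gene length and library total. The submitters' processing notes name build mm10. Aligner, counting tool and strand use: not given in the sources used here. The tests ran in edgeR 4.0.16 under R 4.3.3 (quasi-likelihood F test, TMM scaling, 16765 genes after filtering on low counts, all 6 libraries, genotype as the only factor), with Benjamini-Hochberg adjustment over all tested genes, a threshold of 0.05 and 3 residual degrees of freedom. CPM values use TMM-scaled totals. Standard errors are the log2 fold change over the square root of F. The fitted common variation between replicates was 50.3%. DESeq2 1.42.0, limma 3.58.1 on log2 values of the deposited FPKM plus a pseudocount, and other scalings and filters were alternatives. The procedure was also run on simulated data, with less variation between replicates than the fitted value and only large changes in well-counted genes. That run does not show how the test performs at the variation of these data.

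The members and lists were chosen with earlier results of these data known. Per-library values are given for each listed gene called, or with an unadjusted p under 0.05, in any comparison, and for Nfe2l2, Keap1 and Bach1, and the other listed genes are given by range. From the second list, up to 2 genes per group with the smallest unadjusted p are named. Replicate numbers were not used to pair samples. The correlations of deviations between same-numbered libraries were 0.01, -0.07 and -0.03, which does not show that the samples were unpaired. In GENCODE M21 all 47 genes were found, 42 with the same start and end as in the files. RefSeq promoters were matched by symbol. Promoters of Hmox1, Gsr, Gsta4, Gclc, Abcc1 and Prdx6 were not used here.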

Additional observations from a re-analysis of the deposited data

How the results depend on the processing

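Direction was followed under 18 alternatives only for the 60 fold changes of listed genes with an unadjusted edgeR p under 0.05 in the Results above. Of these 0 reversed, which that selection and the shared libraries made likely in advance. Of the 1076 values 883 kept their side of the threshold, 141 passed it newly and 52 no longer passed it. Counts of calls moved. For Cis_KO against WT (4 of 47 listed genes, 46 of all genes), the calls were 21 and 544 with DESeq2, 1 and 26 without scaling, 19 and 1021 without a filter, and 0 and 6 with the 2 genotypes fitted alone. With log2(FPKM + 1), all genes gave 74 calls, and without the filter 0 listed and 2 in all. For Cis_Stat6_DKO against Cis_KO (3 and 60), the calls were 22 and 1540 with DESeq2, 5 listed with limma-voom, 0 and 29 without scaling, 24 and 1840 without a filter, and 0 and 5 fitted alone. With log2(FPKM + 1) they were 8 and 191, with log2(FPKM + 0.1) 7 and 99, and without the FPKM filter 0 and 2. For Cis_Stat6_DKO against WT (0 and 22), no alternative called a listed gene, and all genes gave 317 with DESeq2, 385 without a filter, 277 fitted alone, 52 with log2(FPKM + 1), 35 with log2(FPKM + 0.1) and 1 without the FPKM filter. With the replicate number as a block, the calls were 0 and 24 for Cis_KO against WT, 1 and 28 for Cis_Stat6_DKO against Cis_KO and 12 of all genes for Cis_Stat6_DKO against WT. The cause was not tested.

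Leaving out each library in turn gave 0 to 31 listed and 3 to 5349 of all genes for Cis_KO against WT, 0 to 30 and 4 to 5999 for Cis_Stat6_DKO against Cis_KO, and 0 to 350 of all genes for Cis_Stat6_DKO against WT. A genotype left with 1 library was assumed to vary like the others. The median log2 fold change over the listed genes was -0.79 without scaling (-0.15 over all genes), -0.59 with log2(FPKM + 1), -0.80 with log2(FPKM + 0.1) and -0.58 without the FPKM filter for Cis_KO against WT. For Cis_Stat6_DKO against Cis_KO it was 0.54 with log2(FPKM + 1), with and without its filter. Without 1 library it spanned -0.76 to -0.53, 0.63 to 0.82 and -0.04 to 0.07 in the 3 comparisons. Each genotype had 2 libraries, and 1 of those of Cis_KO stood apart. In the edgeR fit used for the Results above, no listed gene with a log2 fold change under 1 in size was called. This did not hold for every alternative.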

Other observations

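Nnt, the mitochondrial transhydrogenase that makes NADPH and a member of the second list, is split over a pair of overlapping rows on chromosome 13 in the count files. The row ENSMUSG00000025453 held 51.7 and 48.0 CPM in Cis_Stat6_DKO, 56.7 and 52.7 CPM in Cis_KO, and 8.09 and 24.2 CPM in WT. The row ENSMUSG00000116207 held 0 CPM in every Cis_Stat6_DKO and Cis_KO library, and 21.9 and 5.01 CPM in WT. Summed over both rows, the level was 51.7 and 48.0 CPM in Cis_Stat6_DKO, 56.7 and 52.7 CPM in Cis_KO, and 30.0 and 29.2 CPM in WT. The 4 knockout libraries lay above both WT libraries in the sum, which was chosen after its values were seen and was not tested.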
